A study of Bos taurus with 18 samples.

Results

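The genes described here are 10 genes of smooth muscle and myofibroblast contraction: ACTA2, TAGLN, MYL9, CNN1, TPM1, TPM2, MYH11, CALD1, ACTG2 and MYOCD. They were taken by gene name from a table of 24596 bovine genes measured by RNA sequencing in 18 libraries. A row was found for 9 of the 10, and ACTG2, the enteric smooth muscle actin, was not analysed here. MYL9 named 2 rows, of which the one with the larger total stands for the gene and the other is given as the second MYL9 row. The study cultured fibroblasts of a Holstein-like and a Simmental-like line until they immortalized without an added gene, and sequenced each line at the primary, senescent and immortalized stage with 3 libraries per stage. The labels name the cell lines PBF-13, Sn-BF-13 and HUN-BF-13 for the Simmental-like primary, senescent and immortalized stages, and PBF-15, Sn-BF-15 and HUN-BF-15 for the Holstein-like ones. No transgene, drug or donor age is given for any group. The labels call the 3 libraries of a stage biological replicates, but not that they came from separate animals, so every p-value below rests on library-to-library spread alone, part of which may be technical. The column names also give the Simmental-like stages different culture names (BDF-20-3B-4 for primary, BDF-20-MultiXray-Ctrl for senescent and BF-13 for immortalized). Stage and culture therefore cannot be told apart. The Holstein-like columns are named BEF for primary and BF-15 for both later stages, and all of them carry the mark Rerun.

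Smooth muscle cells and myofibroblasts, the contractile form that fibroblasts take in healing wounds and on stiff surfaces, pull on their surroundings with bundles of actin and myosin II. The actin filament is built from actin isoforms, is decorated by tropomyosin, calponin, caldesmon and transgelin, and is pulled by myosin heavy chains once the regulatory light chain is phosphorylated. Many of these genes carry binding sites for serum response factor (SRF), whose coactivators are myocardin in muscle and the myocardin-related factors in most cells, and TGF-beta is the classical signal that turns a fibroblast into an ACTA2-positive myofibroblast.

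Levels are given in CPM, each gene's count as a share of the library total, multiplied by 1000000. Totals were 18.2 to 23.2 M counts (M for 1000000) in Simmental-like libraries, 11 to 14.1 M in Holstein-like senescent and immortalized libraries and 1.42 to 1.47 M in Holstein-like primary libraries. The labelled cell type was checked with 10 fibroblast markers, which summed to between 39484 and 65652 CPM in the 9 Simmental-like libraries. In 8 of the 9 Holstein-like libraries they summed to only 329 to 1446 CPM, and markers of skeletal muscle, heart muscle, liver or kidney were high instead. Those 8 libraries go against their label, so the Holstein-like libraries are given singly and are not compared by a test; they enter only 1 alternative fit, named where its counts are given. Among Simmental-like libraries, primary library 1 stood apart from the other 2 (chi-square per gene 353 and 181, against 39.8 between libraries 2 and 3), whereas senescent libraries 1 and 2 differed by little more than counting noise (1.34).

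Across the 3 Simmental-like stages the smooth muscle isoforms did not move as a block. Between primary and senescent cells, ACTA2, CNN1, CALD1, TAGLN and MYL9 fell, TPM2 fell with a call that several settings lose, and MYH11 rose at a very low level. Between senescent and immortalized cells, ACTA2 and CNN1 fell further and MYH11 fell back, TPM1 rose, and the changes of TAGLN, CALD1, TPM2 and MYL9 did not pass the test. The summed CPM of the 9 genes was 7025 to 9471 in primary, 4234 to 4345 in senescent and 4239 to 4580 in immortalized libraries. Log2 changes are from edgeR's quasi-likelihood test on the 9 Simmental-like libraries, with TMM scaling, which aligns the bulk of genes rather than the totals. p-values were adjusted over all 13099 genes tested, a gene being called at an adjusted p under 0.05. With totals in place of TMM, the median change of all genes moves from 0.01 to 0.47 for senescent against primary, from 0.00 to -0.16 for immortalized against senescent and from 0.00 to 0.30 for immortalized against primary, so the log2 changes below are relative to the bulk of genes and are lower than ratios of CPM where the primary libraries are the reference. The 3 comparisons share libraries and are not independent of each other.

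**Figure D1:**
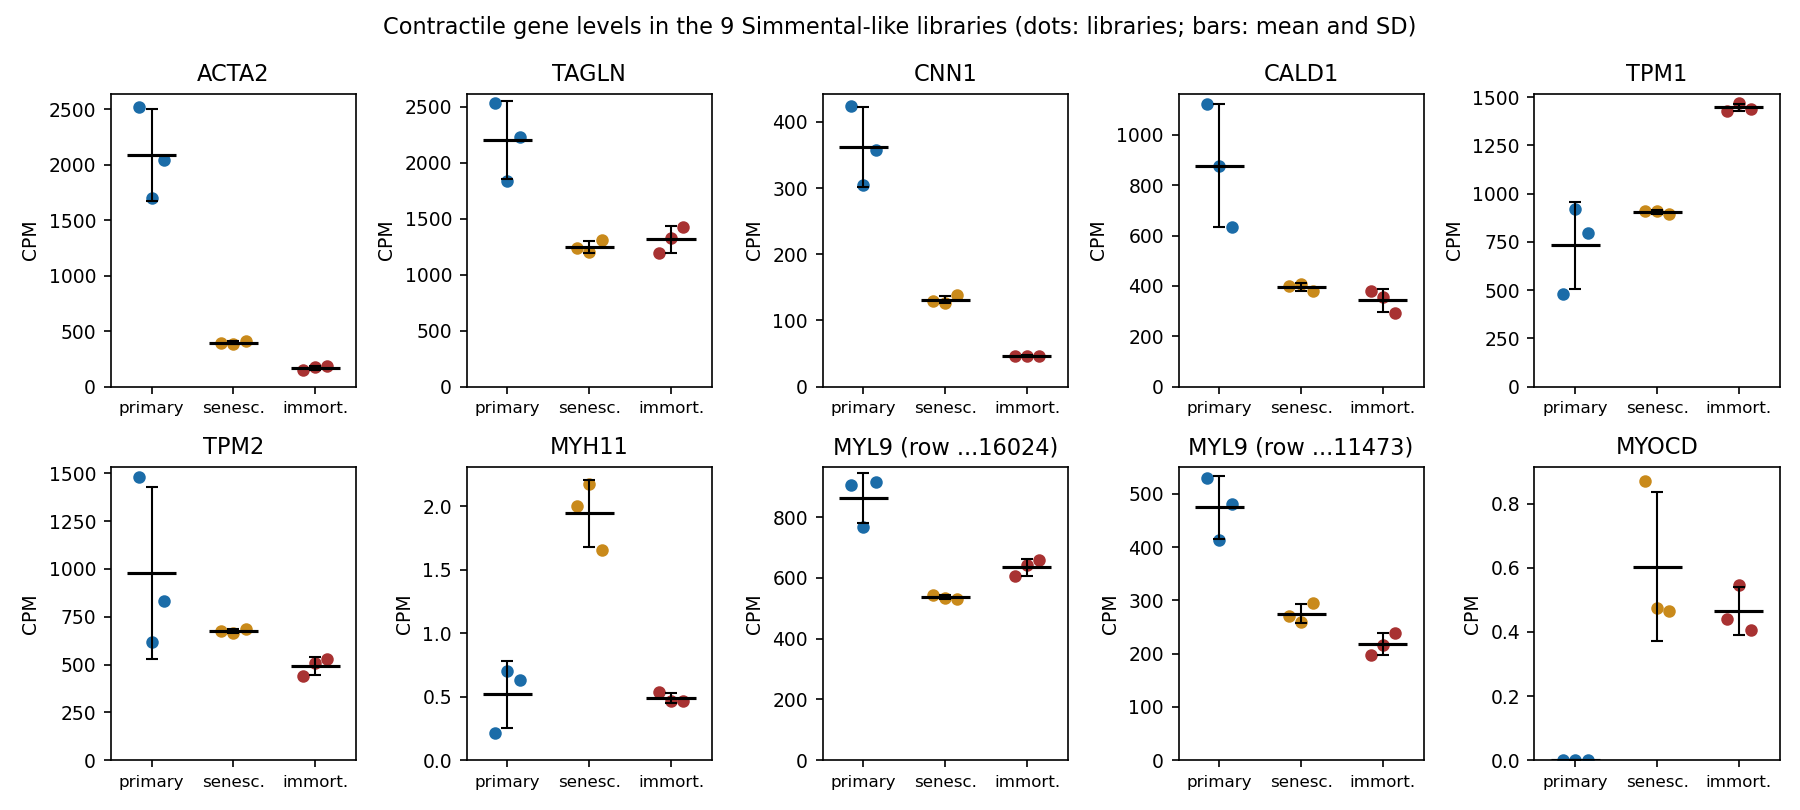
Level of each contractile gene in the 9 Simmental-like libraries, in CPM on an axis of its own per gene that starts at 0; each point is 1 library and the bars are the mean and SD of the 3 libraries of a stage. ACTA2 and CNN1 step down between all 3 stages, TPM1 is highest in the immortalized libraries, and MYH11 and MYOCD lie near the bottom of what can be counted.

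ACTA2 (ENSBTAG00000014614) encodes smooth muscle alpha-actin, the defining isoform of the myofibroblast. In primary libraries it stood at 2525, 1700 and 2047 CPM, in senescent libraries at 394, 389 and 409 CPM, and in immortalized libraries at 150, 176 and 183 CPM. The 3 stages did not overlap, with the widest spread among the primary libraries. ACTA2 fell by 2.90 ± 0.22 (log2, SE) from primary to senescent (adjusted p = 2.15e-05) and by a further 1.06 ± 0.21 from senescent to immortalized (adjusted p = 0.00552). Its total fall from primary to immortalized was -3.96 ± 0.24 on the log2 scale (adjusted p = 3.58e-06). In bulk RNA, fewer cells with a high level and less RNA in each cell cannot be told apart.

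A share within the actins does not depend on how libraries are scaled. Of the counts of 5 actin genes (ACTA2, ACTB, ACTG1, ACTA1 and ACTC1), ACTA2 held 9.79% ± 1.5 (SD, n = 3) in primary, 3.16% ± 0.0175 in senescent and 1.3% ± 0.0648 in immortalized libraries. ACTG1, the cytoplasmic gamma-actin, had a share of 35.4% ± 7.12, 47.7% ± 0.468 and 51.8% ± 2.19 in the same order, higher where that of ACTA2 was lower. ACTB, the cytoplasmic beta-actin, held 54.8% ± 5.62, 49.1% ± 0.466 and 46.9% ± 2.12. Groups of 3 libraries against 3 allow no exact permutation p below 0.1, so these shares carry no test. The deposited ACTA2 counts are not whole in any of the 9 libraries, which shows that some reads were divided between ACTA2 and other transcripts.

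The actin-binding proteins TAGLN, CNN1 and CALD1 all fell between primary and senescent cells. Afterwards CNN1 fell again, while the differences of TAGLN and CALD1 did not pass the test. TAGLN (ENSBTAG00000007196) encodes transgelin (SM22-alpha), an early smooth muscle protein that cross-links actin. It stood at 2532, 1835 and 2232 CPM in primary, 1235, 1198 and 1305 CPM in senescent and 1189, 1325 and 1429 CPM in immortalized libraries. The primary libraries were all higher than the other 6, while senescent and immortalized libraries overlapped. TAGLN fell by 1.32 ± 0.19 from primary to senescent (adjusted p = 0.00067), and the immortalized-to-senescent difference was 0.24 ± 0.19 (adjusted p = 0.373). Its share of the transgelin family (TAGLN, TAGLN2 and TAGLN3) was 65.2% ± 4.97, 59.7% ± 0.552 and 63.4% ± 1.97 (SD, n = 3) at the 3 stages, since the non-muscle member TAGLN2 fell as well (-0.95 ± 0.10 on the log2 scale, adjusted p = 0.000126).

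CNN1 (ENSBTAG00000011207) encodes calponin 1, which binds actin and slows the myosin ATPase, and like ACTA2 it fell at both steps. Its level was 424, 304 and 358 CPM in primary, 130, 127 and 138 CPM in senescent and 46.9, 45.8 and 47 CPM in immortalized libraries. The 3 stages were cleanly separated, and the immortalized libraries differed by little from each other. The log2 change was -1.96 ± 0.19 from primary to senescent (adjusted p = 6.9e-05), -1.34 ± 0.19 from senescent to immortalized (adjusted p = 0.000906) and -3.30 ± 0.20 over both steps (adjusted p = 3.82e-06). Within the calponins, CNN1 made up 40.3% ± 9.5 of counts in primary, 18.1% ± 0.379 in senescent and 8.21% ± 0.251 in immortalized libraries (SD, n = 3). CNN2, the broadly expressed calponin, held 18% ± 7.05, 25.6% ± 0.239 and 40.1% ± 0.226.

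CALD1 (ENSBTAG00000013953) encodes caldesmon, an actin- and calmodulin-binding brake on myosin that smooth muscle and other cells make in different splice forms; the gene counts do not separate these forms. It stood at 1123, 878 and 633 CPM in primary, 401, 408 and 379 CPM in senescent and 379, 357 and 292 CPM in immortalized libraries. All 3 primary libraries were above the other 6, with a wide spread among them. CALD1 fell by 1.66 ± 0.25 from primary to senescent (adjusted p = 0.000866). The further difference of -0.05 ± 0.25 did not pass the test (adjusted p = 0.904), and without immortalized library 3 it was 0.05.

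**Figure D2:**
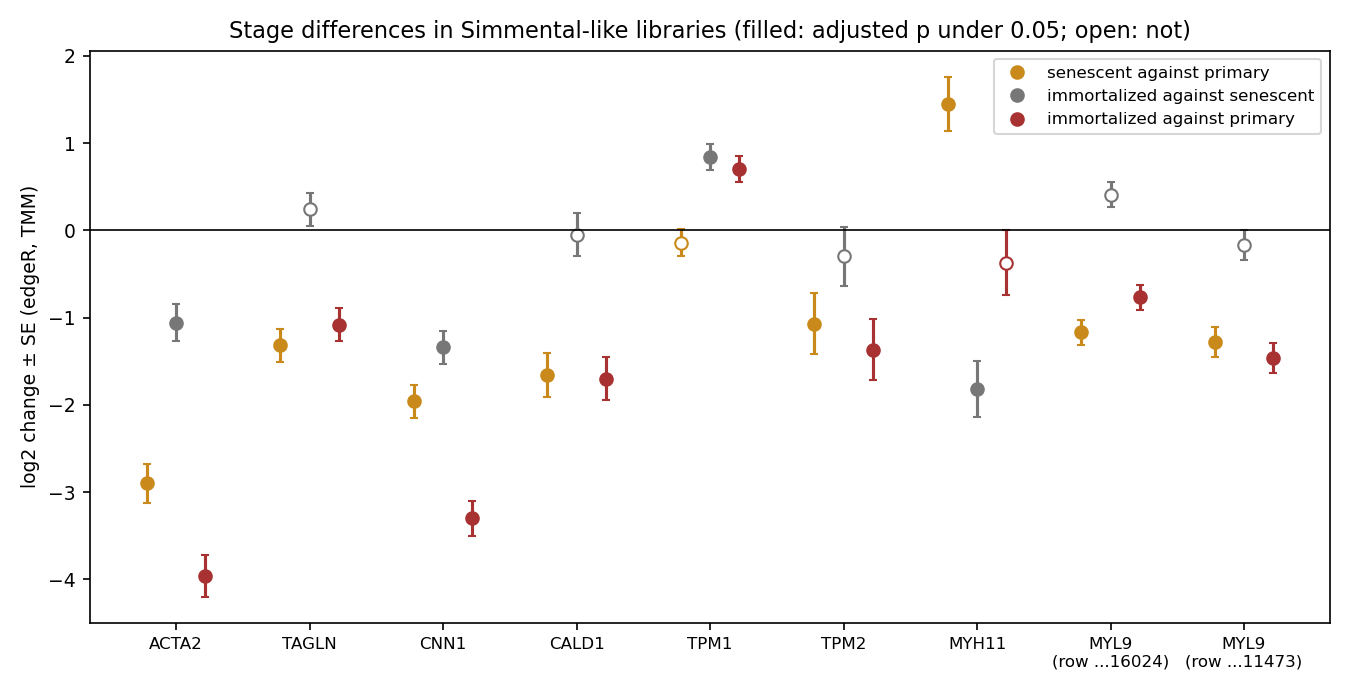
Log2 change of each tested contractile gene in the 3 comparisons of Simmental-like stages, with its standard error, from edgeR with TMM scaling; filled points passed an adjusted p of 0.05 and open points did not. ACTA2 and CNN1 lie farthest below 0 in immortalized against primary cells (-3.96 and -3.30), and TPM1 is the only gene above 0 that passed the test there.

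The tropomyosins lie along the actin filament and set which partners can bind. The muscle-enriched members TPM1 (ENSBTAG00000005373) and TPM2 (ENSBTAG00000011424) went opposite ways over the whole series of stages. TPM1 stood at 481, 921 and 795 CPM in primary, 912, 910 and 894 CPM in senescent and 1430, 1469 and 1439 CPM in immortalized libraries. Immortalized libraries were all above the rest, while primary library 2 lay just above the senescent libraries and primary library 1 far below them. TPM1 rose by 0.84 ± 0.15 from senescent to immortalized (adjusted p = 0.00294) and by 0.70 ± 0.15 from primary to immortalized (adjusted p = 0.0043). The senescent-to-primary difference was -0.14 ± 0.15 (adjusted p = 0.436), 0.31 with library totals as the scale, and -0.30 with an adjusted p of 0.00409 when primary library 1 was left out.

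TPM2 was 1481, 619 and 833 CPM in primary, 674, 666 and 687 CPM in senescent and 438, 507 and 531 CPM in immortalized libraries. Primary library 2 lay below all senescent libraries, so the primary and senescent stages overlapped. Primary library 3 lay above the senescent libraries, and primary library 1 was by far the highest. The log2 change from primary to senescent was -1.07 ± 0.35 (adjusted p = 0.0281), and that from primary to immortalized was -1.37 ± 0.35 (adjusted p = 0.0117). Without primary library 1 these values were -0.49 (adjusted p = 0.00959) and -0.80 (adjusted p = 0.000691). The first of these calls was lost with library totals as the scale (-0.53, adjusted p = 0.125) and without any 1 of the senescent libraries (adjusted p = 0.0753, 0.0766 and 0.0701 without libraries 1, 2 and 3). In the family of 4 tropomyosins, TPM1 held 15.9% ± 4.75, 16.8% ± 0.0548 and 26.1% ± 0.887 of counts at the 3 stages (SD, n = 3), and TPM2 held 21.4% ± 10.3, 12.6% ± 0.296 and 8.88% ± 1.12. TPM4, a non-muscle member, held 48.3% ± 3.58, 57.2% ± 0.152 and 56.1% ± 1.36.

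The smooth muscle motor itself was barely detected in these cells. MYH11 (ENSBTAG00000015988), the smooth muscle myosin heavy chain and the most specific marker of mature smooth muscle, was at 0.216, 0.702 and 0.635 CPM in primary, 2.00, 2.18 and 1.66 CPM in senescent and 0.538, 0.464 and 0.467 CPM in immortalized libraries. Senescent libraries were above all others, and primary and immortalized libraries overlapped. The counts behind these levels were 4 to 16 in primary, 32 to 41 in senescent and 9 to 10 in immortalized libraries. As for ACTA2, the deposited MYH11 counts are not whole in any Simmental-like library. Some of these few counts may therefore come from reads divided between MYH11 and other transcripts. MYH11 rose by 1.45 ± 0.31 from primary to senescent (adjusted p = 0.00452) and fell by 1.82 ± 0.32 from senescent to immortalized (adjusted p = 0.0027). It made up 0.0268% ± 0.00389 of the counts of 6 myosin II heavy chains in primary, 0.0611% ± 0.00644 in senescent and 0.0112% ± 0.000883 in immortalized libraries (SD, n = 3). The rest was almost all MYH9 and MYH10, the non-muscle heavy chains, with MYH9 at 65.1% ± 4.39, 74.1% ± 0.359 and 57.1% ± 0.762. The summed CPM of 8 endothelial markers moved in the same direction as MYH11. It was 3.1 to 4.1 CPM in primary, 12.4 to 14.4 CPM in senescent and 4.78 to 5.36 CPM in immortalized libraries. VWF, the highest in senescent libraries, was at 1.33 to 2.37, 5.85 to 6.68 and 1.67 to 2.25 CPM. PECAM1, KDR and ESAM were also highest there. CDH5 did not rise (0.0494 to 0.381 CPM in primary, 0.0515 to 0.242 in senescent), nor did EGFL7 (0.0544 to 0.296, 0 to 0.145). TEK overlapped between senescent and immortalized libraries, and CLDN5 reached at most 0.11 CPM. Of the 8 pericyte markers, RGS5 and KCNJ8 reached at most 0.0526 and 0.0544 CPM in any Simmental-like library. CSPG4 (100 to 235 CPM), PDGFRB (62.5 to 219 CPM), ANPEP (30.5 to 161 CPM) and NOTCH3 (6.37 to 23.6 CPM) were well above that. ABCC9 was highest in senescent libraries, as MYH11 was (0.198 to 0.598, 1.03 to 1.35 and 0 to 0.0997 CPM at the 3 stages), and MCAM was higher at both later stages (0.198 to 0.326, 2.63 to 3.09 and 3.59 to 4.61 CPM). The part of such cells in the MYH11 counts was not tested. Desmin (DES), the muscle intermediate filament, reached at most 1.21 CPM.

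MYL9 encodes the regulatory myosin light chain of smooth muscle, whose phosphorylation switches the motor on. The name stands on 2 rows, and a RefSeq gene table lists MYL9 as an older name of MYL12A, a near-identical non-muscle light chain that has no row of its own name, so which row holds which gene is not settled. The deposited counts of the larger row are not whole in 9 of the 9 Simmental-like libraries, and those of the second row in 6. The larger row, ENSBTAG00000016024, was at 905, 768 and 915 CPM in primary, 544, 534 and 531 CPM in senescent and 605, 642 and 658 CPM in immortalized libraries. It fell by 1.17 ± 0.14 from primary to senescent (adjusted p = 0.000221), and all 3 immortalized libraries lay between the other stages. The difference between immortalized and senescent libraries was 0.41 ± 0.14 and missed the threshold (adjusted p = 0.0546).

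The second MYL9 row, ENSBTAG00000011473, was at 530, 413 and 482 CPM in primary, 271, 260 and 295 CPM in senescent and 198, 217 and 239 CPM in immortalized libraries. The stages did not overlap on the CPM scale, but the last step was within the error. This row fell by 1.28 ± 0.17 from primary to senescent (adjusted p = 0.000432) and differed by -0.17 ± 0.17 from senescent to immortalized (adjusted p = 0.473). Its counts equalled 34.7% ± 1.28, 33.5% ± 1.57 and 25.4% ± 1.02 (SD, n = 3) of the summed counts of the larger MYL9 row and MYL12B. That sum does not include the second row, so these values are ratios and not shares.

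MYOCD (ENSBTAG00000035706) encodes myocardin, the SRF coactivator that defines the smooth muscle and heart programme. No count was found in any of the 3 primary libraries, while the senescent libraries held 18, 9 and 9 counts and the immortalized libraries 8, 11 and 8. In levels this was 0.871, 0.474 and 0.464 CPM in senescent and 0.439, 0.548 and 0.405 CPM in immortalized libraries. The gene did not pass the filter on low counts. Against a floor of 3 counts over the primary group (0.0485 CPM), the pooled senescent level of 0.609 CPM was at least 12.6-fold higher and the pooled immortalized level of 0.465 CPM at least 9.59-fold higher. With no filter, edgeR gave an adjusted p of 0.00107 for senescent against primary, 0.745 for immortalized against senescent and 0.00153 for immortalized against primary. Heart muscle also uses myocardin, and 7 heart muscle markers summed to 0.604 to 1.36 CPM in primary, 20.7 to 22.5 CPM in senescent and 18.9 to 24.1 CPM in immortalized libraries. Most of the later sums was NKX2-5, a heart transcription factor (0.172 to 0.653, 17.3 to 18 and 17.2 to 21.3 CPM at the 3 stages). TNNI3, cardiac troponin I, was at 0.0431 to 0.148, 1.53 to 2.47 and 1.54 to 2.58 CPM, and NPPB, a natriuretic peptide, at 0 to 0.0494, 1.68 to 2.27 and 0.0997 to 0.202 CPM. TNNT2, cardiac troponin T, went the other way, at 0.388 to 0.692, 0.105 to 0.515 and 0 to 0.0506 CPM. MYBPC3, NPPA and RYR2 reached at most 0.0997, 0.0515 and 0.145 CPM. The part of such cells in the MYOCD counts was not tested.

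Counted over the genes, 8 of the 10 passed the filter on low counts. For senescent against primary 1 was higher, 6 were lower and 1 did not pass the test, with a median log2 change of -1.25 against 0.01 for all genes. Among all tested genes 28.3% were called higher and 29.7% lower in that comparison. For immortalized against senescent 1 was higher, 3 were lower and 4 did not pass the test (median -0.17), beside 16.4% of all genes higher and 16.1% lower. For immortalized against primary 1 was higher, 6 were lower and 1 did not pass the test (median -1.23), beside 24.9% of all genes higher and 25.5% lower. Without primary library 1, which stood apart, 8 of the genes other than MYOCD passed the test for senescent against primary, beside 33.6% of all genes higher and 34% lower; MYOCD then passed the filter too, through the stages in which it has counts, and is not read as support. With library totals as the scale, 45.5% of all genes were called higher and 14% lower in the first comparison, 11.5% and 20.6% in the second and 35% and 16% in the third. A single fit of all 18 libraries shares 1 spread with the Holstein-like libraries. In it 4, 1 and 3 of the 10 genes passed the test in the 3 comparisons. Beside them 7.78%, 0.963% and 6.34% of all genes were higher and 5.85%, 1.84% and 5.78% lower. In a fit of the 6 libraries of immortalized against senescent 7 passed, beside 32.7% of all genes higher and 34.1% lower.

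Other genes of the contractile apparatus are given by their counts beside those of all genes. Of 21 tested genes of a list of other smooth muscle apparatus genes, 7 rose, 4 fell and 10 did not pass the test between primary and senescent cells (median 0.28), beside 28.3% of all genes higher and 29.7% lower. LMOD1, leiomodin 1, which nucleates actin filaments in smooth muscle, fell at both steps, from 49.1 CPM in primary to 18.9 in senescent and 4.12 in immortalized libraries (log2 change -1.86 ± 0.12, adjusted p = 6.13e-06, and then -2.03 ± 0.12, adjusted p = 1.23e-05). Going the other way from primary to senescent were PGM5 (aciculin, a partner of dystrophin at adhesions; 5.97 to 111 CPM, log2 change 3.76), PPP1R14A (CPI-17, an inhibitor of myosin light chain phosphatase; 3.43 to 22.9 CPM, 2.20) and ITGA8 (the integrin alpha-8 subunit; 16.8 to 85.5 CPM, 1.93). From senescent to immortalized cells 2 of the 21 rose, 7 fell and 12 did not pass (median -0.40), beside 16.4% and 16.1% of all genes. The 2 that rose were MYLK, the kinase of the regulatory light chain (7.84 to 16.6 CPM, log2 change 1.24), and ACTN1, alpha-actinin 1 (1580 to 3170 CPM, 1.16). VCL, vinculin, fell by 0.52 with an adjusted p of 0.045, a call lost with library totals as the scale. Over both steps 7 rose, 6 fell and 8 did not pass (median -0.03), beside 24.9% and 25.5% of all genes, with PGM5 (3.31), PPP1R14A (2.65) and MYLK (1.42) highest and LMOD1 (-3.89) lowest among those named.

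Among the non-muscle relatives of the contractile genes, the number of calls and the sign of the median at the first step depended on the scale. On both scales more were called lower than higher. Of 11 tested, 7 fell from primary to senescent cells and the other 4 did not pass the test with TMM scaling (median -0.36). Beside them 28.3% of all genes were higher and 29.7% lower, with a median of 0.01. With library totals 1 was higher and 4 were lower (median 0.11). On that scale 45.5% of all genes were higher and 14% lower, with a median of 0.47. ACTB fell from 11600 to 6070 CPM (log2 change -1.43 ± 0.20, adjusted p = 0.000475), MYL6, the essential light chain, from 1340 to 838 CPM (-1.19) and MYL12B, a non-muscle regulatory light chain, from 31 to 11 CPM (-1.99). From senescent to immortalized cells 1 rose and 3 fell, beside 16.4% of all genes higher and 16.1% lower. MYL12B (-1.63), TPM3 (-0.37) and CNN3 (-0.32) were the 3. The gene that rose, MYH10, went from 815 to 1850 CPM (1.34, adjusted p = 0.045), a call lost with library totals (adjusted p = 0.102) and with upper quartile scaling (0.052). From primary to immortalized cells 7 fell and 4 did not pass with TMM scaling (median -0.67), beside 24.9% of all genes higher and 25.5% lower. MYL12B (-3.62), ACTB (-1.25), MYL6 (-1.05) and TAGLN2 (-0.94) were among the 7. With library totals 2 rose and 6 fell (median -0.37), beside 35% of all genes higher and 16% lower.

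**Figure D3:**
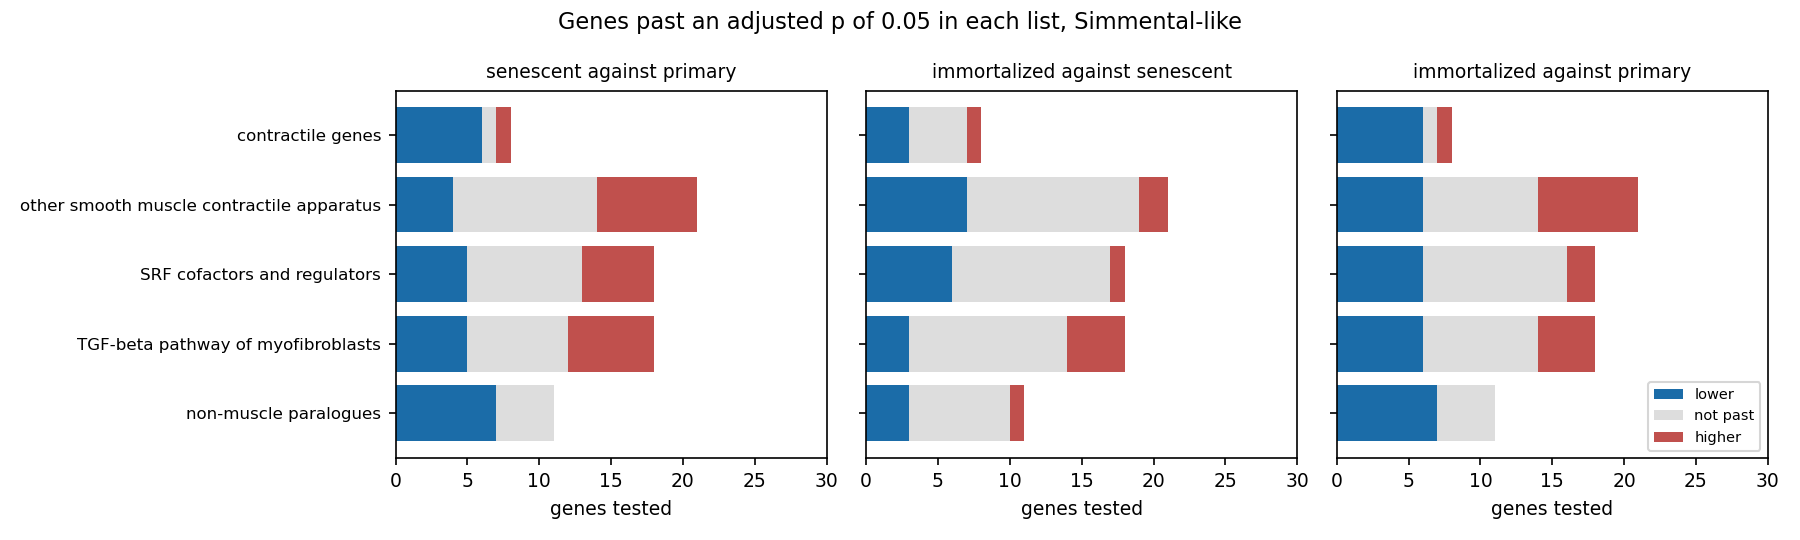
Number of tested genes of each list that were called higher, called lower or not called in the 3 Simmental-like comparisons (edgeR, TMM scaling, adjusted p under 0.05). The contractile genes have 6 of 8 lower in senescent against primary and in immortalized against primary cells, while the list of other smooth muscle apparatus genes has 4 and 6 of 21 lower and 7 higher in both.

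Among 18 tested SRF cofactors and regulators 5 rose and 5 fell from primary to senescent cells (median 0.06), shares near the 28.3% and 29.7% over all genes. With library totals 8 rose and 3 fell, beside 45.5% of all genes higher and 14% lower. KLF5, a zinc-finger factor that represses or activates smooth muscle genes by context, rose from 10.4 to 86.5 CPM (log2 change 2.60 ± 0.11, adjusted p = 7.71e-07). CSRP2 and CSRP1, LIM proteins that bridge SRF and GATA factors, fell by 2.15 and 1.14, and PRRX1, a mesenchymal homeobox factor, by 1.32. From senescent to immortalized cells 1 rose and 6 fell (median -0.42), beside 16.4% and 16.1% of all genes, with MKL2, a myocardin-related coactivator (-1.11), MEF2D (-1.10), ELK4, an SRF partner (-1.08), and KLF5 (-1.02) among those that fell. Beside 24.9% and 25.5% of all genes, 2 rose from primary to immortalized cells, KLF5 (1.58) and ELK3 (1.28), and 6 fell, CSRP2 (-2.03) and PRRX1 (-1.69) most of those named.

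TGF-beta is the best-known inducer of ACTA2. From primary to senescent cells 6 of 18 tested genes of its pathway rose and 5 fell (median -0.06; 0.39 with library totals), shares near the 28.3% and 29.7% over all genes. The ligand TGFB2 rose from 6.05 to 35 CPM (2.10 ± 0.32, adjusted p = 0.00077), and LTBP1, which stores latent TGF-beta in the matrix, from 40.5 to 257 CPM (2.26 ± 0.44, adjusted p = 0.00305). SMAD6, an inhibitory SMAD, fell by 1.45. The target TGFBI rose from 9.31 to 31.6 CPM in senescent cells (1.33) and was at 0.257 CPM in immortalized ones (log2 change -6.74 ± 0.43, adjusted p = 1.9e-05). Between senescent and immortalized cells 4 rose and 3 fell, beside 16.4% and 16.1% of all genes. The ligand TGFB3 rose by 0.89, and SMAD3, a signal transducer, fell by 1.27. From primary to immortalized cells 4 rose and 6 fell, beside 24.9% and 25.5% of all genes. LTBP1 (2.33), TGFB2 (1.40) and the receptor TGFBR2 (1.31) were higher and SMAD6 (-1.12) was lower. With library totals 5 rose and 5 fell, beside 35% of all genes higher and 16% lower.

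Fibroblast markers also shifted between stages. With TMM scaling 9 of 10 fell and 1 rose from primary to senescent cells (median -1.17, beside 29.7% and 28.3% of all genes). From senescent to immortalized cells 4 rose and 6 did not pass (median 0.36), beside 16.4% of all genes higher and 16.1% lower. The contractile genes' medians were -1.25 and -0.17. With library totals 5 fell and 1 rose in the first comparison, beside 14% of all genes lower and 45.5% higher. In the second 1 rose and 1 fell, beside 11.5% of all genes higher and 20.6% lower. Of 6 tested pericyte markers 1 rose and 2 fell in the first comparison, and all 8 summed to 228 to 471, 390 to 393 and 405 to 440 CPM at the 3 stages. The part of these shifts in the contractile genes' changes was not tested.

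The genes whose pattern over the 9 Simmental-like libraries was most like that of ACTA2, among 8489 genes compared by Pearson's r of log2(CPM + 1), were F3 (0.998), ISYNA1 (0.997), NRN1 (0.997), LRRN4CL (0.997) and ANKRD1 (0.996). F3, tissue factor, was at 46.9, 15 and 7.9 CPM (means of primary, senescent and immortalized), and ANKRD1, a nuclear and sarcomeric ankyrin protein, at 255, 85.8 and 54.6 CPM. LRRN4CL was the most abundant of them, at 1550, 593 and 325 CPM. For TAGLN they were CCDC28B and RPS3A (both 0.996) and ARPC3, ACTB and BIN1 (each 0.995). ARPC3, a subunit of the Arp2/3 complex that branches actin, was at 216, 112 and 124 CPM, and BIN1, a membrane-bending protein, at 154, 87.7 and 92.9 CPM. The 9 points fall into 3 stages and share library totals and depth, so r describes a profile of 3 levels and carries no test.

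**Figure D4:**
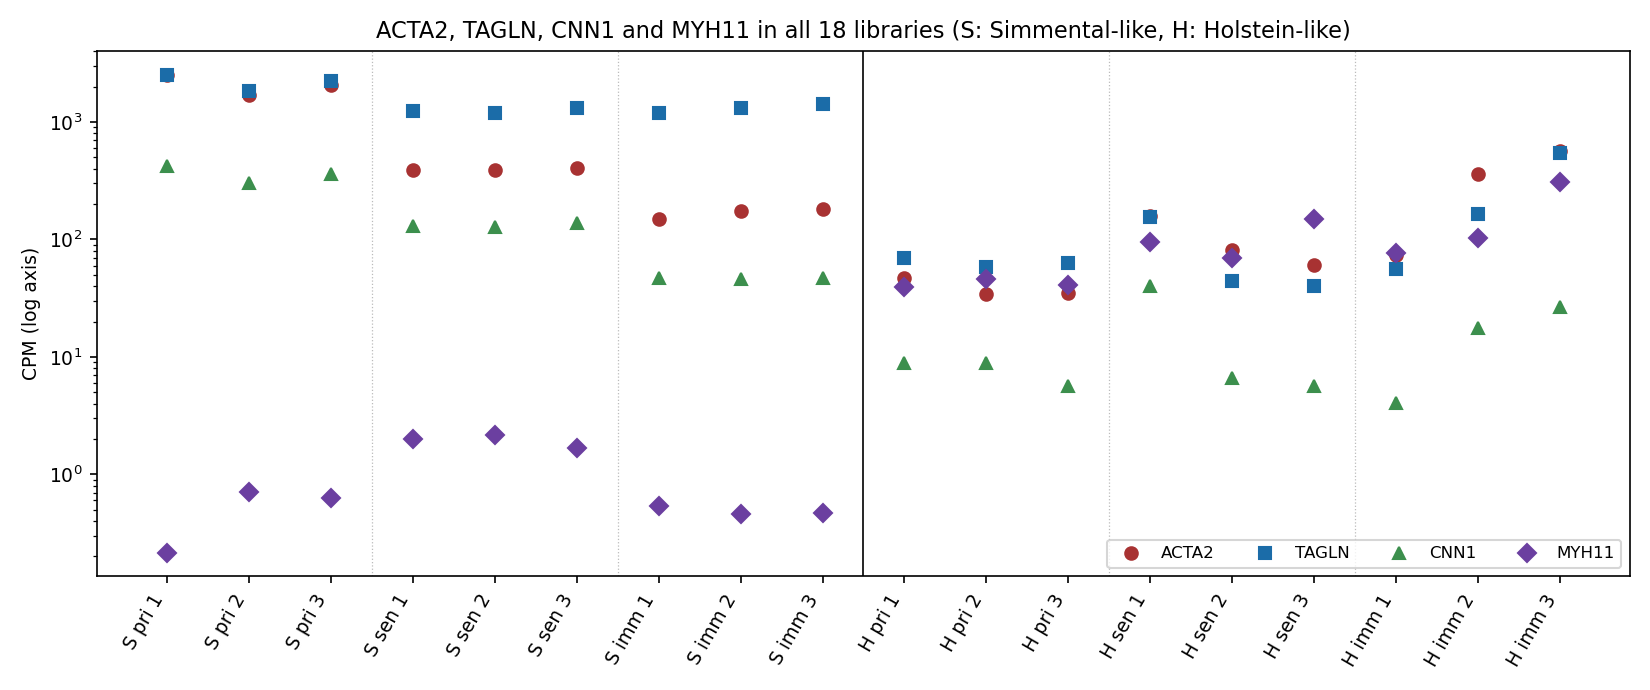
Level of ACTA2, TAGLN, CNN1 and MYH11 in each of the 18 libraries, in CPM on a log axis; the solid line parts the Simmental-like (S) from the Holstein-like (H) libraries and dotted lines part the stages (pri, sen, imm). MYH11 lies between 0.216 and 2.18 CPM in the Simmental-like and between 39.1 and 306 CPM in the Holstein-like libraries.

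In the Holstein-like libraries the contractile genes differed widely, TPM1 over a 983-fold and TPM2 over a 458-fold range, and libraries of 1 label could lie far apart. The 3 primary libraries were alike and held the highest TPM2, at 8867, 8857 and 8781 CPM, with TPM1 at 2224, 2188 and 2147 CPM. At their low depth, ACTA2 was 47.3 CPM (95% exact Poisson interval 36.8 to 59.8), 34.1 CPM (25.3 to 44.9) and 35.1 CPM (26.1 to 46.3), intervals that cover counting error only. These intervals overlap, and ACTA1, the skeletal muscle alpha-actin, made up 99.2% of the actin counts. MYH11 was at 39.1, 45.7 and 40.7 CPM in them and made up 0.0483% ± 0.00421 (SD, n = 3) of the myosin II heavy chain counts, where the skeletal muscle chain MYH1 held 72.6% ± 0.294. Skeletal muscle markers summed to 58126 to 58565 CPM in these libraries, against 7.41 to 19 CPM in Simmental-like ones.

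Senescent library 1 held 7765 CPM of TPM1, 2203 CPM of TPM2 and the highest CNN1 of the line (40.0 CPM). ACTA2 was at 158 CPM, CALD1 at 107 CPM and MYH11 at 95.6 CPM. Its actin counts were 69.5% ACTC1, the cardiac alpha-actin (95% exact binomial interval 69.3 to 69.6), 25.3% ACTA1 (25.1 to 25.4) and 0.737% ACTA2 (0.706 to 0.768). MYOCD had 146 counts there (10.4 CPM, 95% exact Poisson interval 8.75 to 12.2), against at most 25 counts in any other Holstein-like library. The heart muscle markers summed to 17634 CPM in this library and the skeletal muscle markers to 7351 CPM. Of the latter sum, 7324 CPM was CKM, and every other skeletal muscle marker was at 6.6 CPM (TNNT3) or less. Liver markers summed to 3049 CPM there.

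Senescent libraries 2 and 3 and immortalized library 1 had little of the tropomyosins, calponin 1 and transgelin, but not of caldesmon. TPM1 was at 7.9, 11.9 and 13.2 CPM, TPM2 at 21.8, 19.4 and 22.1 CPM, CNN1 at 6.58, 5.63 and 4.03 CPM and TAGLN at 44.5, 39.8 and 55.5 CPM in these 3 libraries. The Holstein-like primary libraries were also low in CNN1 (5.62 to 8.91 CPM) and TAGLN (57.9 to 69.9 CPM). CALD1 was at 289, 364 and 243 CPM in senescent libraries 2 and 3 and immortalized library 1, above the 25.3 to 37.5 CPM of the primary libraries. MYH11 was 69.2, 148 and 76.8 CPM, and ACTA2 82.1, 60.1 and 73.2 CPM, above the primary libraries as well. Liver markers summed to 139777, 129897 and 130054 CPM in the same libraries.

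Immortalized library 2, in which kidney markers summed to 8070 CPM, had 358 CPM of ACTA2, 164 CPM of TAGLN, 103 CPM of MYH11 and 240 CPM of the second MYL9 row. Immortalized library 3 had the most ACTA2 (567 CPM), TAGLN (546 CPM), MYH11 (306 CPM) and, with senescent library 3, CALD1 (364 CPM in each) of the Holstein-like line. It was the 1 Holstein-like library with fibroblast markers in the Simmental-like range (65162 CPM), and it also had 5760 CPM of endothelial and 2170 CPM of pericyte markers, against at most 14.4 and 471 CPM in any Simmental-like library. The parts of the other cell types in these levels were not tested.

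**Figure D5:**
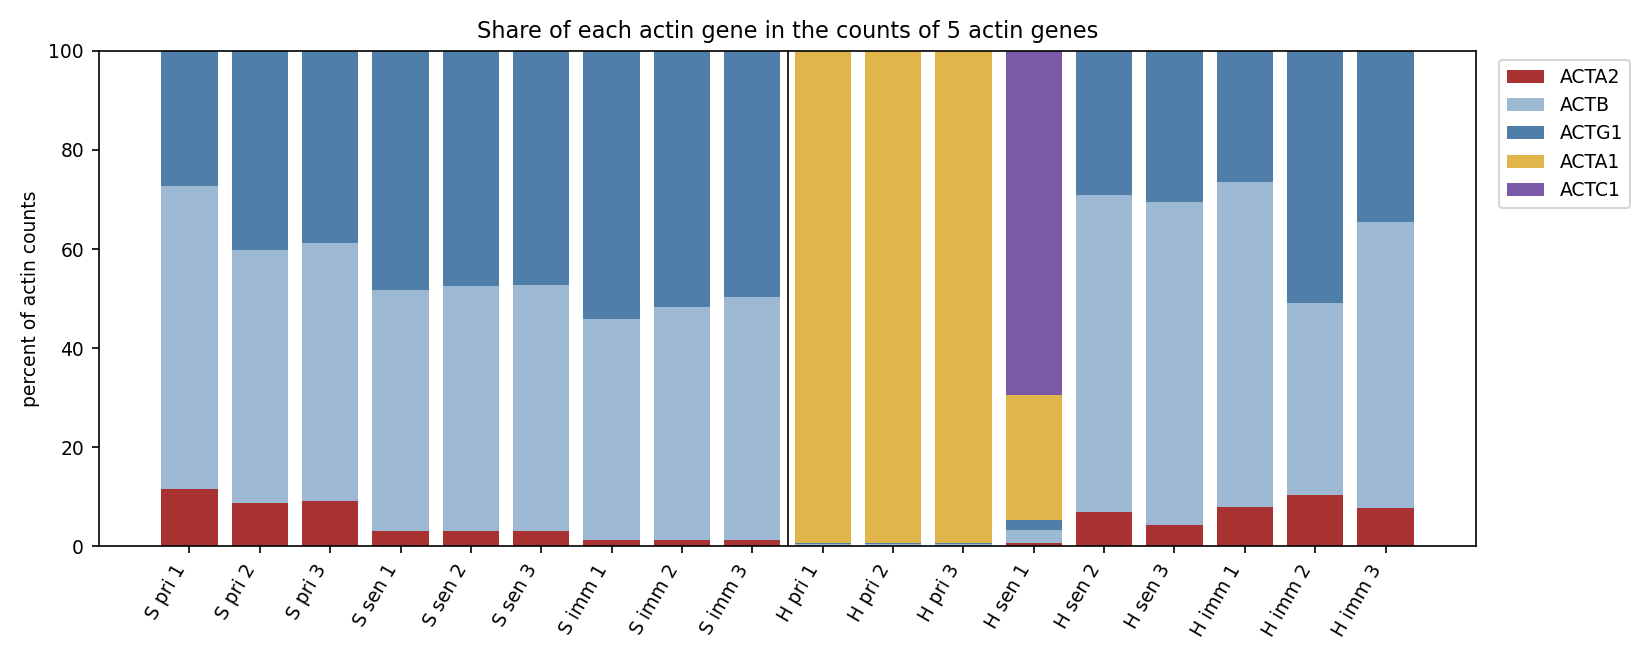
Share of each of 5 actin genes in their summed counts, in percent, for each of the 18 libraries. The skeletal and cardiac isoforms ACTA1 and ACTC1 fill the Holstein-like primary libraries and senescent library 1, and elsewhere ACTA2 holds between 1.22% and 11.5%.

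The ratio of MYH11 to ACTA2 did not overlap between Simmental-like and Holstein-like libraries, of which 8 of 9 carry markers of other organs. MYH11 counts per 1000 ACTA2 counts were 0.0854 to 0.413 in Simmental-like primary, 4.06 to 5.61 in senescent and 2.55 to 3.57 in immortalized libraries. In Holstein-like libraries the same ratio was 287 to 2467. No Simmental-like library exceeded 2.18 CPM of MYH11 and no Holstein-like library was below 39.1 CPM. The deposited counts of both genes are not whole in any Simmental-like library, so divided reads may enter the ratio there. The genes differ in length, so the ratio is compared between libraries only and gives no order of the genes.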

How the data were processed

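RNA of 18 libraries was isolated with RNeasy mini kits; NEBNext Ultra II chemistry and single-read NextSeq sequencing followed, per the labels' protocols. The genome build was UMD3.1, per the submitters' processing notes. The authors deposited 1 table of expected counts per Ensembl gene, named as merged salmon output. How reads were aligned, with which salmon version and annotation, and whether by strand, is not given in the sources used here, so reads of overlapping genes cannot be told apart. Per library 0.992% to 7.06% of values were fractional; counts were rounded for testing. RefSeq gene names were used only to look up synonyms.

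The members and lists were chosen with earlier results of these data known. All 10 genes are named, and of each pathway list up to 4 called genes per comparison with the largest change, no overlap between stages and a mean of 10 CPM or more at the higher stage. 1 pathway list and 1 gene of another are not reported here. The 5 genes most like ACTA2 and TAGLN were taken by Pearson's r. DES, the endothelial, pericyte and heart muscle markers, MYH9, MYH1, ACTG1, CNN2 and TPM4 were named after their values were seen.

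The 9 Simmental-like libraries were fitted in R 4.3.3 by the robust quasi-likelihood F-test of edgeR 4.0.16, after filterByExpr by stage and TMM scaling, with Benjamini-Hochberg adjustment and a threshold of 0.05. Standard errors were taken as the absolute log2 change divided by the root of the F statistic. Holstein-like libraries were not compared by a test and entered only the alternative fit of all 18 libraries. CPM were computed from library totals; a gene with 0 counts in 1 library could be present at 3 counts, 0.129 to 2.11 CPM, which covers counting error only. Alternatives were other scalings and filters, DESeq2 1.42.0, limma-voom (limma 3.58.1), a replicate block, other sets of libraries in the fit, leaving out each library, and summing senescent libraries 1 and 2. The steps were tested on simulated data.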

Additional observations from a re-analysis of the deposited data

Results flagged for a closer look

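In CPM by library total, the 2 lines went opposite ways for ACTA2, TPM1, CALD1 and the second MYL9 row. All 3 Holstein-like libraries of a later stage lay on 1 side of the Holstein-like primary libraries. The Simmental-like libraries of that stage lay on the other side of the Simmental-like primary libraries. The share of all genes that meet this rule is not given here, so nothing particular to these rows is read from it. None of these differences between lines was tested, and the Holstein-like libraries carry markers of different organs, so their means over different organs are given as values only and describe no stage. ACTA2 had a log2 ratio of mean CPM of 1.36 for senescent against primary in the Holstein-like libraries (38.8 to 99.9 CPM), against -2.40 in the Simmental-like ones (2090 to 397 CPM). For immortalized against primary its ratio was 3.1 in the Holstein-like line (38.8 to 333 CPM) and -3.62 in the Simmental-like line (2090 to 170 CPM). The Holstein-like values depend on the scale. With TMM scaling over 18 libraries, ACTA2 was 79, 57.3 and 58.8 CPM in primary and 107, 271 and 446 CPM in immortalized libraries. On that scale senescent library 3 lay below primary library 1 (values in the next section), so the Holstein-like senescent and primary libraries overlapped. TPM1 had a ratio of -5.68 for immortalized against primary in the Holstein-like line (2186 to 42.6 CPM) and 0.98 in the Simmental-like line (732 to 1446 CPM). CALD1 had 3.02 in the Holstein-like line for senescent against primary (31.2 to 253 CPM) and 3.02 for immortalized against primary (31.2 to 254 CPM), against -1.15 and -1.36 in the Simmental-like line. The second MYL9 row had 3.43 for immortalized against primary in the Holstein-like line (15.6 to 168 CPM) and -1.12 in the Simmental-like line (475 to 218 CPM).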

How the results depend on the processing

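Of 456 member log2 changes recomputed under the alternatives, 428 kept their direction and their side of the threshold, 19 lost the call, 7 gained one and 2 reversed: TPM1 for senescent against primary (0.31 with library totals as the scale) and CALD1 for immortalized against senescent (0.05 without immortalized replicate 3 and -0.12 without immortalized replicate 1, the ends of its leave-one-out range). Neither passed the test in either form. In the fit of all 18 libraries 4, 1 and 3 members passed the test for senescent against primary, immortalized against senescent and immortalized against primary. Of 14850 genes tested, that fit called 1156 higher and 869 lower, 143 and 273, and 942 and 858 in the 3 comparisons. The main analysis called 3704 and 3887, 2146 and 2103, and 3264 and 3343 of 13099 genes. In the fit of the 6 libraries compared, 7 members passed for immortalized against senescent. Beside them 4212 of 12872 genes were higher and 4388 lower (32.7% and 34.1%). Leaving out 1 replicate gave 6 to 9 members for senescent against primary (9 without primary replicate 1, MYOCD among them), 4 in each case for immortalized against senescent and 7 to 8 for immortalized against primary. Over all genes, these fits called 21.8% to 34.3% higher and 22.2% to 34% lower for senescent against primary. For immortalized against senescent the shares were 10.6% to 12.6% and 10.8% to 13.1%. For immortalized against primary they were 19.5% to 31.3% and 19.3% to 31.4%. Without primary replicate 1, immortalized against senescent had 3814 genes higher and 3979 lower. MYL9 passed for immortalized against senescent with no filter (adjusted p = 0.0499), DESeq2 (0.027), limma-voom (0.0457) and the 6 libraries compared (0.000104). Same-numbered replicates had correlations of -0.50 to 0.18, so the numbers do not pair them. The replicate block gave 6, 4 and 7 members, beside 25.9%, 13.2% and 22.4% of all genes higher and 25.6%, 13.3% and 21.6% lower. With this block TPM2 for senescent against primary was -0.97 (adjusted p = 0.0585). With TMM scaling over 18 libraries, ACTA2 in the Holstein-like libraries was 79, 57.3 and 58.8 CPM (primary), 214, 110 and 75.1 CPM (senescent) and 107, 271 and 446 CPM (immortalized); these differ from the CPM by total because the scale factor of each library differs. The shares within families do not use a scale. MYH11 and MYOCD rest on few counts per Simmental-like library, which limits their precision.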
